A study of Mus musculus with 12 samples.

Results

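The comparison described here sets p53 knockout (ko) livers against p53 wild type (wt) livers of mice on a normal diet. Libraries were chosen by their labels alone: the 3 libraries labelled p53 ko and normal, and the 3 labelled p53 wt and normal, which is 6 of the 12 libraries of the series. All 6 were made from total RNA of the liver of C57BL/6 mice aged 12 weeks, and the other 6 libraries hold the same genotypes on a high-fat diet (HFD). The sources used here give neither the way the knockout was made nor the sex of the mice, the hour of sampling or whether they had fed. The labels do not say that the 3 libraries of a group came from separate mice, so p-values measure only how far these libraries spread, and that spread may be technical. Sqle, which encodes squalene epoxidase of cholesterol synthesis, is the gene named in the title of the series.

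The protein p53, encoded by Trp53, is a transcription factor that is held at a low level in resting cells by the ubiquitin ligase Mdm2. Damage or metabolic stress stabilises it, and it then switches on genes that stop the cell cycle, such as Cdkn1a, or that drive cell death and repair. In hepatocytes, most genes of sterol and fatty acid synthesis are under the SREBP transcription factors, which p53 is known to influence.

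The 6 libraries held 15465187 to 20492567 counts each, and 14433 genes passed the filter on low counts. A pair of libraries stood apart. The library wt_normal replicate 2 held 1.41% of its counts in 13 skeletal muscle genes, against at most 0.00127% in the other 5, and it was also highest in B cell, mesothelial and adipocyte markers. Mitochondrially encoded genes held 14.6% of the counts of ko_normal replicate 1, against 4.68% to 6.06% in the other 5. Each result below was therefore also computed without each of these libraries and without both.

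Trp53 (ENSMUSG00000059552, chromosome 11, 69580359 to 69591873 on GRCm38) was measured at 16.3, 14.5 and 15.6 CPM (read counts scaled to a common library size) in the wt libraries, given here and below in the order of replicates 1, 2 and 3. In the ko libraries it was at 1.62, 0.399 and 0.273 CPM, from 28, 8 and 5 counts. All ko libraries lay far below all wt libraries, and ko_normal replicate 1 held the most residual signal. Its fitted log2 change of -4.35 had an SE of 0.55 (adjusted p = 0.00984 by edgeR's quasi-likelihood test with Benjamini-Hochberg adjustment), and the change was -5.52 without both libraries that stand apart.

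Cdkn1a (ENSMUSG00000023067, chromosome 17, 29090976 to 29100727), the cell cycle inhibitor p21 and the classical p53 target, was at 31.9, 33.3 and 115 CPM in wt. In ko it was at 0.811, 3.05 and 0.872 CPM. The groups did not overlap, although wt_normal replicate 3 was more than 3 times as high as the other wt libraries. The log2 change of -5.22 (SE 0.92, edgeR adjusted p = 0.0471) was -5.20 without both libraries, where it no longer passed (adjusted p = 0.261). The call of Cdkn1a remained in 3 of the 12 fits that each leave out 1 library of the series.

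A gene was called where edgeR's adjusted p was under 0.05 over the 14433 genes. In all, 30 genes were called (0.208% of those tested), 21 of them higher in ko (0.145%) and 9 lower (0.0624%). Of these, 25 have an established symbol and 5 are predicted gene models. For all 30 genes the ko values lay wholly on one side of the wt values. As background, every ko library lay above every wt library for 11.4% of all genes, and below for 11.4%. At an unadjusted p under 0.05 there were 2176 genes.

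**Figure D1:**
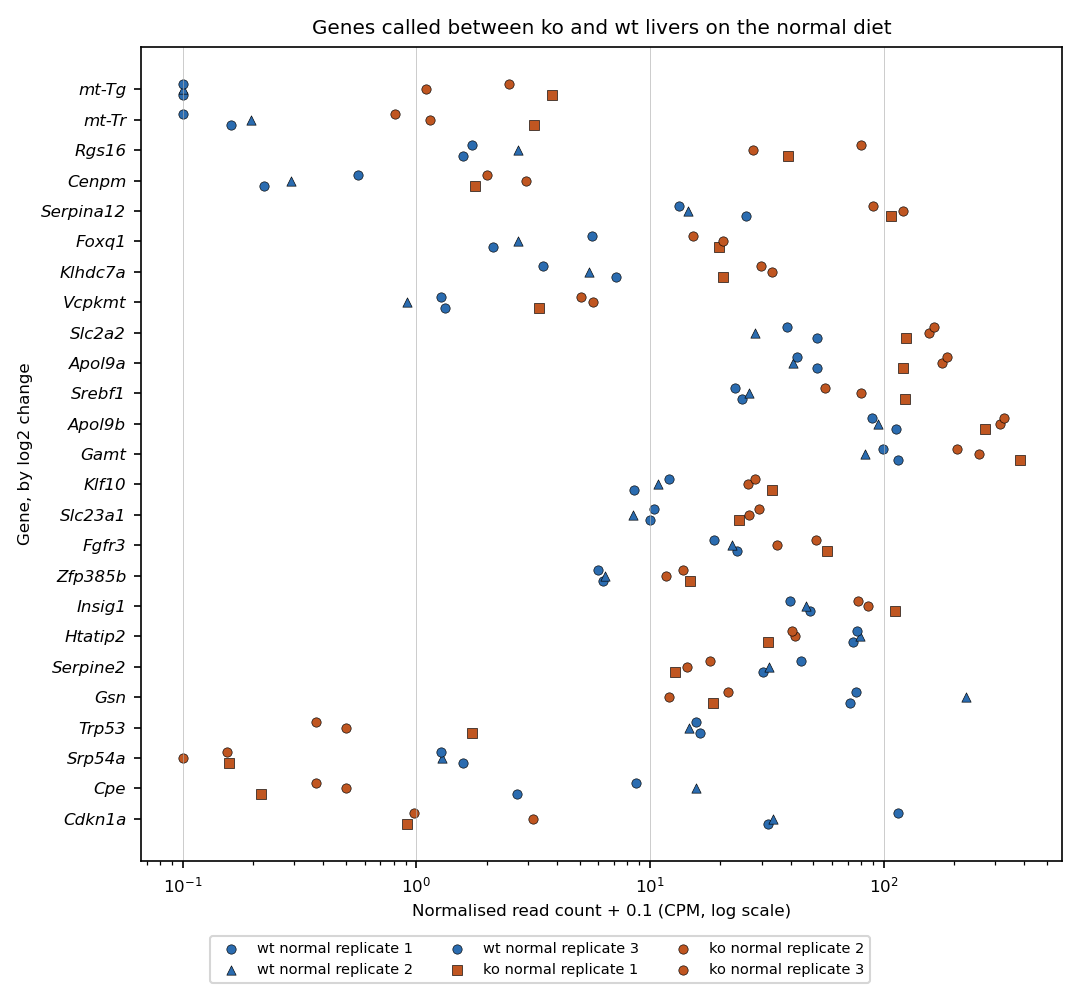
Normalised read count plus 0.1 (CPM, log scale) of the 25 called genes with an established symbol in each normal diet library. Blue points are wt and orange points ko, the triangle marks wt_normal replicate 2 and the square ko_normal replicate 1. In each gene the 3 ko points lie on one side of the 3 wt points.

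Without wt_normal replicate 2, 6 genes were called (0.0416%), of which 5 were among the 30. Without ko_normal replicate 1, 16 were called (0.111%), of which 10 were among the 30. Without both, 6 were called (0.0416%), of which 4 were among the 30. Those 4 genes passed in all 3 fits: Serpina12, Slc23a1, Slc2a2 and Trp53. Bhlhe41, a clock repressor, was called only without wt_normal replicate 2, among these fits (log2 change 4.0, edgeR adjusted p = 0.0296, against 2.88 and 0.063 with all libraries). Without ko_normal replicate 1 the added genes were Irf7, Zbp1 and Ifitm3 of the interferon response, Csrp3, Acmsd and 1 predicted model. Irf7 and Zbp1 were also called without both. The direction of all 30 genes was the same without both libraries, which was fixed in advance because none overlapped between the groups. All 30 had an unadjusted p under 0.05 there, and no log2 change moved by more than 1.5 times. The 30 were chosen with the libraries that this fit keeps, so these counts are no independent check. The plot of log2 changes with libraries left out shows the estimates beside the calls that ended.

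**Figure D2:**
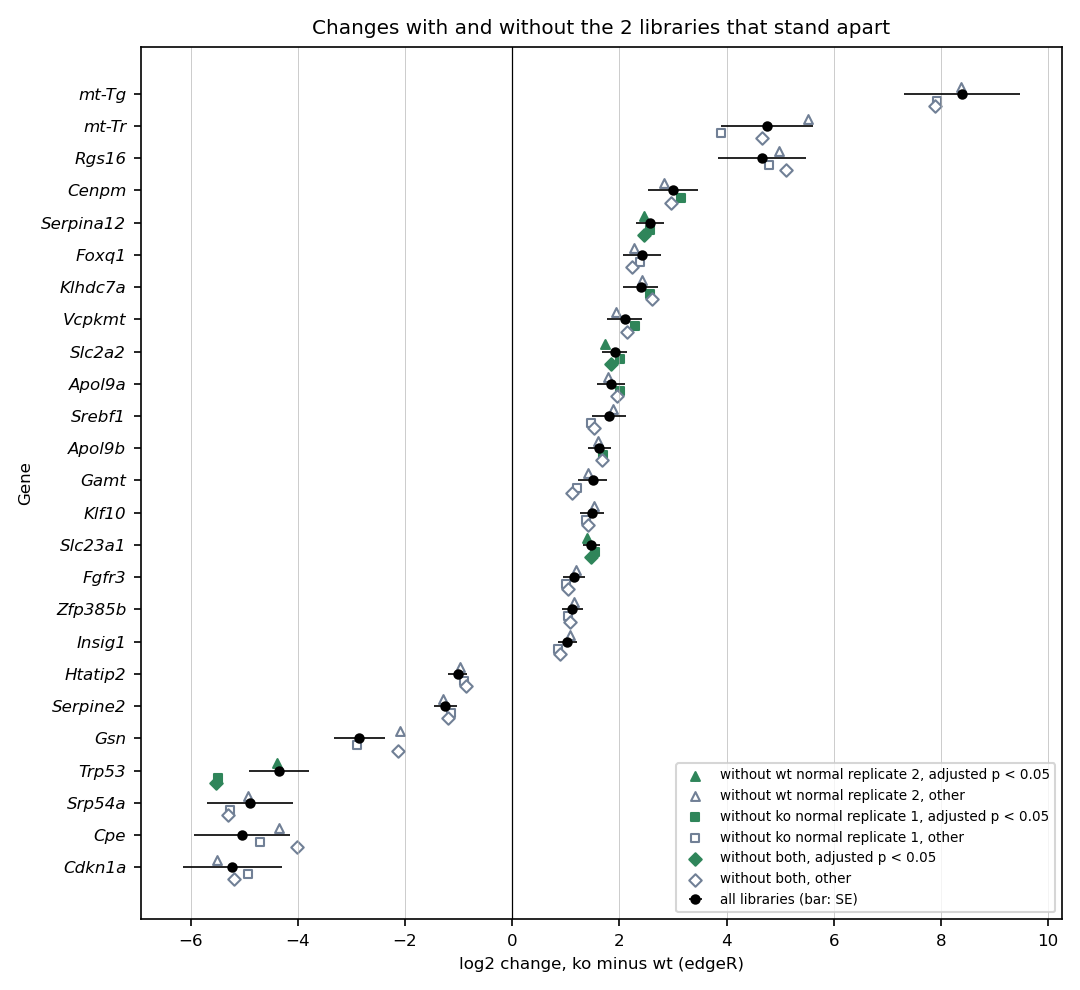
Fitted log2 change, ko minus wt, of the 25 called genes with an established symbol. Black points use all libraries, with bars of 1 SE; triangles, squares and diamonds leave out wt_normal replicate 2, ko_normal replicate 1 and both. Filled green marks passed an adjusted p of 0.05 there, which Serpina12, Slc23a1, Slc2a2 and Trp53 did in all 3 fits.

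Serpina12 (ENSMUSG00000041567, chromosome 12, 104028769 to 104044443) encodes vaspin, a secreted serine protease inhibitor linked to insulin sensitivity. Its level was 25.7, 14.5 and 13.2 CPM in wt and 108, 121 and 89.8 CPM in ko. The lowest ko library was thus more than 3 times the highest wt library. The log2 change was 2.58 (SE 0.26, edgeR adjusted p = 0.00234), and 2.45 without both libraries (adjusted p = 0.0326). Among the called genes with an established symbol, only Serpina12 and Slc23a1 kept their call whichever of the 12 libraries was left out.

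Slc23a1 (ENSMUSG00000024354) encodes a sodium-dependent transporter of vitamin C. It was at 9.91, 8.33 and 10.3 CPM in wt and at 23.8, 26.4 and 29.2 CPM in ko. Both groups were tight, with means of 9.50 ± 1.0 and 26.5 ± 2.7 CPM (SD, n = 3). The log2 change was 1.48 (SE 0.15, edgeR adjusted p = 0.00234) and 1.47 without both libraries (adjusted p = 0.0182).

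Slc2a2 (ENSMUSG00000027690, chromosome 3, 28697903 to 28731359) encodes GLUT2, through which glucose enters and leaves the hepatocyte. It was at 51.6, 27.9 and 38.5 CPM in wt and at 125, 156 and 163 CPM in ko. The wt library with muscle transcripts was the lowest of the 6 and ko_normal replicate 1 the lowest of the ko libraries. The log2 change of 1.91 (SE 0.24, edgeR adjusted p = 0.00984) was 1.84 without both (adjusted p = 0.0326). Slc2a2 was the only called member of 19 genes of glucose transport, glycolysis and gluconeogenesis, whose median change was 0.16, against -0.02 over all genes tested. Without both libraries that median was 0.02, against 0.01 over all genes.

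Gys2 and Pklr, the liver forms of glycogen synthase and pyruvate kinase, belong to the same list. Gys2 was at 89.9, 86.9 and 78.5 CPM in wt and at 228, 158 and 186 CPM in ko, a log2 change of 1.16 (SE 0.29, edgeR adjusted p = 0.102). Pklr was at 8.06, 6.33 and 9.86 CPM in wt and at 17.7, 38.8 and 26.8 CPM in ko, a log2 change of 1.78 (SE 0.50, adjusted p = 0.127). Neither passed, and neither overlapped between the groups.

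The 250 bases before the RefSeq start sites of 7 genes were searched on both strands (build GRCm38.p6, 11 start sites). These genes were Cdkn1a, Slc2a2, Insig1, Srebf1, Serpina12, Aen and Phlda3. Sqle has no entry in the RefSeq table used, so its promoter was not searched. The searched motifs were the E-box CACGTG, the NF-Y box CCAAT, the core of the sterol regulatory element (CACCCCAC), and tandem decamers of the p53 consensus, each with at most 1 mismatch and with at most 13 bases between them. Of the 32851 promoters in the RefSeq table, 6.02% held the E-box, 33.8% the NF-Y box, 2.58% the sterol element core and 5.6% the p53 pair. All of these genes but Aen and Phlda3 are called. Sequences of Cdkn1a, Slc2a2 and Insig1 are shown as examples: a p53 target, the glucose transporter and the anchor of the sterol sensor. They run 5′ to 3′ toward the start site, and capitals mark the matches found.
Cdkn1a: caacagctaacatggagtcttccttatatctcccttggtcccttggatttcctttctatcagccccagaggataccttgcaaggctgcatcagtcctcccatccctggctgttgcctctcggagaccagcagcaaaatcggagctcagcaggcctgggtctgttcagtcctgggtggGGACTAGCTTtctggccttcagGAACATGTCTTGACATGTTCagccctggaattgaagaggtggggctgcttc
Slc2a2: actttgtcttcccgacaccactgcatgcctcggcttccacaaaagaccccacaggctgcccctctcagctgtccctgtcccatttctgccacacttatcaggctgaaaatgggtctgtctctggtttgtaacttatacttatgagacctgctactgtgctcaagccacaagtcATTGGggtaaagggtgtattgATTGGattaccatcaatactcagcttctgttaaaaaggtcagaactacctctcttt
Insig1: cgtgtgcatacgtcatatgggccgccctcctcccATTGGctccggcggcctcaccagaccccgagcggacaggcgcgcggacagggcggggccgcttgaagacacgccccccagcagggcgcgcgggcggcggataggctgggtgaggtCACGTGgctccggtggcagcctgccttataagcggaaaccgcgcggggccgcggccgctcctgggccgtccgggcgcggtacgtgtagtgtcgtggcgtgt

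The Cdkn1a window (chr17:29090729-29090978, plus strand) lies before the first of its 2 RefSeq start sites. It held 3 p53 decamers that pair up, starting 73, 51 and 41 bases before the start, the last pair of them directly adjoining. Of the 11 windows searched it alone held a p53 pair, and the window before the other Cdkn1a start site held no searched motif. The Slc2a2 window (chr3:28697653-28697902, plus strand) held 2 NF-Y boxes on the reverse strand, 77 and 56 bases before the start. The Insig1 window (chr5:28071162-28071411, plus strand) held 1 NF-Y box and 1 E-box, 216 and 101 bases before the start. No window held the sterol element core, which says only that these letters are not in it. A match is a stretch of letters and was not tested for binding.

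Of the called rises, 2 belong to the list of SREBP regulators and sterol uptake. Srebf1 (chromosome 11, 60199089 to 60222581), the SREBP-1 gene and a driver of fatty acid synthesis, was at 24.6, 26.4 and 22.9 CPM in wt and at 124, 79.6 and 56.2 CPM in ko. The ko library with the high mitochondrial share was the highest, and the log2 change of 1.81 (SE 0.31, edgeR adjusted p = 0.0449) was 1.53 without both libraries (adjusted p = 0.274). Insig1, which holds SREBP precursors in the endoplasmic reticulum (ER), was at 48.3, 46.6 and 39.7 CPM in wt and at 111, 85.6 and 77.5 CPM in ko. Its log2 change of 1.03 (SE 0.17, adjusted p = 0.0446) was 0.90 without both (adjusted p = 0.234).

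Apol9a and Apol9b, apolipoprotein L genes that interferon is known to induce, rose together. Apol9b was at 113, 93.9 and 88.6 CPM in wt and at 271, 315 and 327 CPM in ko, a log2 change of 1.63 (SE 0.22, edgeR adjusted p = 0.0123). Apol9a was at 51.9, 40.8 and 42.6 CPM in wt and at 121, 178 and 187 CPM in ko, a log2 change of 1.85 (SE 0.26, adjusted p = 0.0133). These neighbouring copies are nearly identical, so their counts may share reads and their levels are uncertain one by one. Both calls remained without ko_normal replicate 1 and ended without wt_normal replicate 2 (adjusted p = 0.077 and 0.0809), at log2 changes of 1.61 and 1.79.

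Several other called rises were of regulators. Klf10, a Krüppel-like transcription factor, was at 8.43, 10.7 and 12.0 CPM in wt and at 33.2, 26.1 and 27.9 CPM in ko (log2 change 1.49, SE 0.23, edgeR adjusted p = 0.0279). Foxq1, a forkhead factor, was at 2.03, 2.62 and 5.52 CPM in wt and at 19.5, 20.4 and 15.1 CPM in ko (2.43, SE 0.36, adjusted p = 0.0219). Rgs16, a regulator of G protein signalling, was at 1.48, 2.62 and 1.63 CPM in wt and at 39.0, 27.6 and 79.9 CPM in ko (4.66, SE 0.82, adjusted p = 0.0471). In each of the 3 genes the ko libraries were at least 2 times the highest wt library. None of these 3 calls remained without wt_normal replicate 2, without ko_normal replicate 1 or without both.

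Fgfr3, a receptor of fibroblast growth factors, was at 23.4, 22.3 and 18.6 CPM in wt and at 57.3, 34.8 and 51.1 CPM in ko (log2 change 1.15, SE 0.21, edgeR adjusted p = 0.0484). Gamt, which makes creatine from guanidinoacetate, was at 115, 83.0 and 99.0 CPM in wt and at 383, 255 and 206 CPM in ko (1.5, SE 0.27, adjusted p = 0.0471). Zfp385b, a zinc finger gene, rose by 1.12 on the log2 scale (SE 0.20, adjusted p = 0.0471). The ko library with the high mitochondrial share was the highest of the ko libraries for all 3 genes, and none of the 3 calls remained without it (adjusted p = 0.117 to 0.128).

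The remaining rises were in genes at low or moderate levels. Klhdc7a was at 7.08, 5.38 and 3.37 CPM in wt and at 20.4, 33.1 and 29.7 CPM in ko. Vcpkmt, a lysine methyltransferase of the chaperone VCP, was at 1.23, 0.809 and 1.17 CPM in wt and at 3.24, 5.59 and 4.96 CPM in ko. Cenpm, a centromere protein gene, was at 0.123, 0.190 and 0.460 CPM in wt and at 1.68, 2.85 and 1.91 CPM in ko, and was the only called member of 27 cell cycle genes, whose median change was -0.11 and turned to 0.04 without both libraries. All 3 were still called without ko_normal replicate 1 and none without wt_normal replicate 2 (adjusted p = 0.0809 to 0.112).

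Higher calls were also made for mt-Tg and mt-Tr, which encode mitochondrial transfer RNAs. mt-Tg had no count in wt and 128 counts over the ko libraries, which is at least 43.6-fold higher against a floor of 3 counts over the group. mt-Tr had 3 counts in wt and 87 in ko, a ratio of 29.6 with an exact 95% interval of 9.81 to 146 for counting error only. Both were highest in ko_normal replicate 1, at 3.71 and 3.07 CPM, against 0.998 and 2.40 CPM for mt-Tg and 1.05 and 0.709 CPM for mt-Tr in the other ko libraries. Neither call remained without ko_normal replicate 1, without wt_normal replicate 2 or without both.

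Among the called falls beside Trp53 and Cdkn1a, Htatip2, a tumour suppressor gene also called TIP30, was at 73.6, 79.0 and 76.8 CPM in wt and at 31.8, 41.4 and 40.3 CPM in ko (log2 change -1.01, SE 0.17, edgeR adjusted p = 0.0449). Serpine2, a secreted inhibitor of thrombin-like proteases, was at 30.3, 32.2 and 44.1 CPM in wt and at 12.7, 14.3 and 17.9 CPM in ko (-1.25, SE 0.22, adjusted p = 0.0449). Without both libraries the changes of these 2 genes were -0.87 and -1.20, with adjusted p of 0.302 and 0.269.

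Gsn, the actin-severing protein gelsolin, was at 71.8, 225 and 75.9 CPM in wt and at 18.4, 11.9 and 21.4 CPM in ko. Its highest value was in the wt library with muscle transcripts, and the log2 change of -2.85 (SE 0.48, edgeR adjusted p = 0.0444) was -2.08 without that library (adjusted p = 0.0947). Cpe, carboxypeptidase E, was at 2.59, 15.6 and 8.63 CPM in wt and at 0.116, 0.399 and 0.273 CPM in ko, and wt_normal replicate 2 was again the highest. Its log2 change was -5.03 (SE 0.90, adjusted p = 0.0471) and -4.35 without wt_normal replicate 2. Srp54a, of the signal recognition particle, has near-identical copies and is uncertain. It had 72 counts in wt and 2 in ko, lower by a ratio of 35.2 with an exact 95% interval of 9.41 to 297.

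Sqle (chromosome 15, 59315077 to 59331192), which oxidises squalene and gives the series its title, was at 4.31, 5.24 and 4.55 CPM in wt and at 5.68, 9.48 and 9.92 CPM in ko. The groups did not overlap, but ko_normal replicate 1 lay close to the highest wt library. The log2 change was 0.83 (SE 0.30) and did not pass (edgeR adjusted p = 0.209). It was 1.04 without ko_normal replicate 1 and 1.14 without both libraries (adjusted p = 0.446), and the two-sided exact permutation p of 0.1 is the smallest that 3 against 3 libraries can give.

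No enzyme of sterol synthesis was called. Of the 3 squalene branch enzymes, all had a log2 change above 0, with a median of 0.66 and of 0.80 without both libraries. Lss, which closes squalene epoxide to lanosterol, was at 9.91, 8.24 and 10.4 CPM in wt and at 17.1, 12.4 and 15.6 CPM in ko (0.66, SE 0.24, edgeR adjusted p = 0.211). Of the 9 mevalonate enzymes 6 were above 0 (median 0.30), and of the 10 enzymes after lanosterol 7 were (median 0.25), against a median of -0.02 over all genes. Without both libraries these medians were 0.43 and 0.53. Mvk, mevalonate kinase, had a log2 change of 0.76 (SE 0.25, edgeR adjusted p = 0.178). Msmo1, a methylsterol oxidase, had one of 0.98 (SE 0.19, adjusted p = 0.0606). Pmvk, phosphomevalonate kinase, went the other way at -0.75 (SE 0.28, adjusted p = 0.232), with every ko library below every wt library.

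Of 13 genes of sterol sensing and uptake, 2 were called higher (Insig1 and Srebf1), 8 had every ko library above every wt library and none the reverse, with a median change of 0.34 and of 0.43 without both libraries. Over all genes, 0.145% were called higher and 11.4% lay apart in each direction. Npc1, which exports cholesterol from lysosomes, was at 44.8, 45.4 and 51.3 CPM in wt and at 95, 78.2 and 97.1 CPM in ko (0.93, SE 0.19, edgeR adjusted p = 0.0606). Insig2, the paralogue of Insig1, was at 298, 172 and 543 CPM in wt and at 77.9, 186 and 201 CPM in ko (-1.12, SE 0.43, adjusted p = 0.238), and its groups overlapped.

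Fatty acid and triglyceride synthesis had no called gene among 20 tested, and 14 of the 20 were above 0. The median of 0.24 was 0.28 without both libraries, but 0.10 without wt_normal replicate 2 and 0.07 without ko_normal replicate 2. Fasn, fatty acid synthase, was at 47.4, 39.9 and 36.7 CPM in wt and at 80.8, 99.6 and 79.5 CPM in ko (log2 change 1.07, SE 0.21, edgeR adjusted p = 0.0606). Mlxipl, the carbohydrate-responsive factor ChREBP, was at 301, 237 and 196 CPM in wt and at 699, 414 and 449 CPM in ko (1.09, SE 0.24, adjusted p = 0.0874). Both sets of values were separate between genotypes and both changes were of similar size without both libraries, at 1.10 and 0.81. Of 11 genes of cholesterol efflux and esterification none was called (median 0.14). Soat2, which esterifies cholesterol in hepatocytes, was at 36.1, 34.3 and 35.8 CPM in wt and at 85.9, 68.1 and 89.0 CPM in ko (1.19, SE 0.27, adjusted p = 0.0901).

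Of 30 p53 target genes tested, 1 was called lower (Cdkn1a) and none higher. The median change was -0.32, also without both libraries, against -0.02 over all genes, and 24 of the 30 lay below 0. Every ko library was below every wt library for 9 of them and above for 2, against the 11.4% of all genes in each direction given above. Aen, a nuclease induced by p53, was at 12.5, 14.7 and 10.1 CPM in wt and at 3.13, 5.69 and 6.11 CPM in ko (-1.32, SE 0.28, edgeR adjusted p = 0.074). Mdm2, the ligase that degrades p53 and is itself a target, was at 26.6, 30.4 and 24.2 CPM in wt and at 23, 21.7 and 21.1 CPM in ko (-0.30, SE 0.16, adjusted p = 0.383).

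Some p53 targets were high in the library with muscle transcripts, which was the highest of the 6 for 13 of the 30, against 3242 of all 14433 genes. Phlda3, an inhibitor of Akt signalling, was at 1.48, 24.9 and 1.63 CPM in wt and at 1.33, 0.849 and 0.927 CPM in ko. Its log2 change of -3.17 (SE 0.93, edgeR adjusted p = 0.141) was -0.57 without wt_normal replicate 2. Ccng1, cyclin G1, was at 17.1, 53.2 and 16.1 CPM in wt and at 10.2, 12.2 and 12.8 CPM in ko, and its change of -1.30 was -0.49 without that library. Both genes were picked for the size of that shift. The targets Gdf15 and Bbc3 lay higher in every ko library, at log2 changes of 1.42 (SE 0.65) and 0.70 (SE 0.34), neither called.

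All 27 interferon response genes tested had a log2 change above 0, with a median of 0.99. Every ko library lay above every wt library for 12, against 11.4% of all genes. None of the 27 was called with all libraries. Within ko, replicates 2 and 3 lay above every wt library for 25 of the 27 genes, against 18% of all genes, while replicate 1 did so for 12 and was the lowest ko library for 25. Over all 14433 genes, replicate 1 lay above every wt library for 4789 and was the lowest ko library for 5916. Without both libraries the median was 1.26 and all 27 genes remained above 0. Without ko_normal replicate 3 the median was 0.76.

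Irf7, the master regulator of type I interferon genes, was at 46.6, 44.2 and 49.8 CPM in wt and at 65.4, 145 and 148 CPM in ko. Its log2 change was 1.35 (SE 0.25, edgeR adjusted p = 0.0539), and 1.62 without both libraries, where it passed (adjusted p = 0.00687). Zbp1, a sensor of foreign nucleic acid, was at 2.83, 3.29 and 4.75 CPM in wt and at 4.81, 16.7 and 19.8 CPM in ko. Its log2 change was 1.92 (SE 0.42, adjusted p = 0.0874), and 2.27 without both (adjusted p = 0.049). For both genes replicates 2 and 3 of ko were more than 2 times any wt library, and replicate 1 lay nearer to wt than to them. Xaf1, an interferon-induced gene of cell death, was at 3.51, 5.05 and 4.34 CPM in wt and at 7.71, 9.53 and 18 CPM in ko (1.45, SE 0.29, adjusted p = 0.0658).

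The genes of MHC class I antigen presentation, many of them inducible by interferon, had no call among 13 tested. All 13 were above 0 with a median of 0.51 with and without both libraries that stand apart. Psmb8, an immunoproteasome subunit, was at 31.9, 33.8 and 33.2 CPM in wt and at 42.1, 57.6 and 72.1 CPM in ko (0.80, SE 0.21, edgeR adjusted p = 0.115). Nlrc5, the transactivator of these genes, was at 23.1, 20.2 and 24.6 CPM in wt and at 42.3, 28.0 and 38.4 CPM in ko (0.68, SE 0.18, adjusted p = 0.115). The immunity GTPases and Ifi200 genes had a median of 0.61, with 11 of 13 above 0 and ko_normal replicate 1 the lowest ko library for 11. Without both libraries their median was 1.01 and all 13 were above 0.

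**Figure D3:**
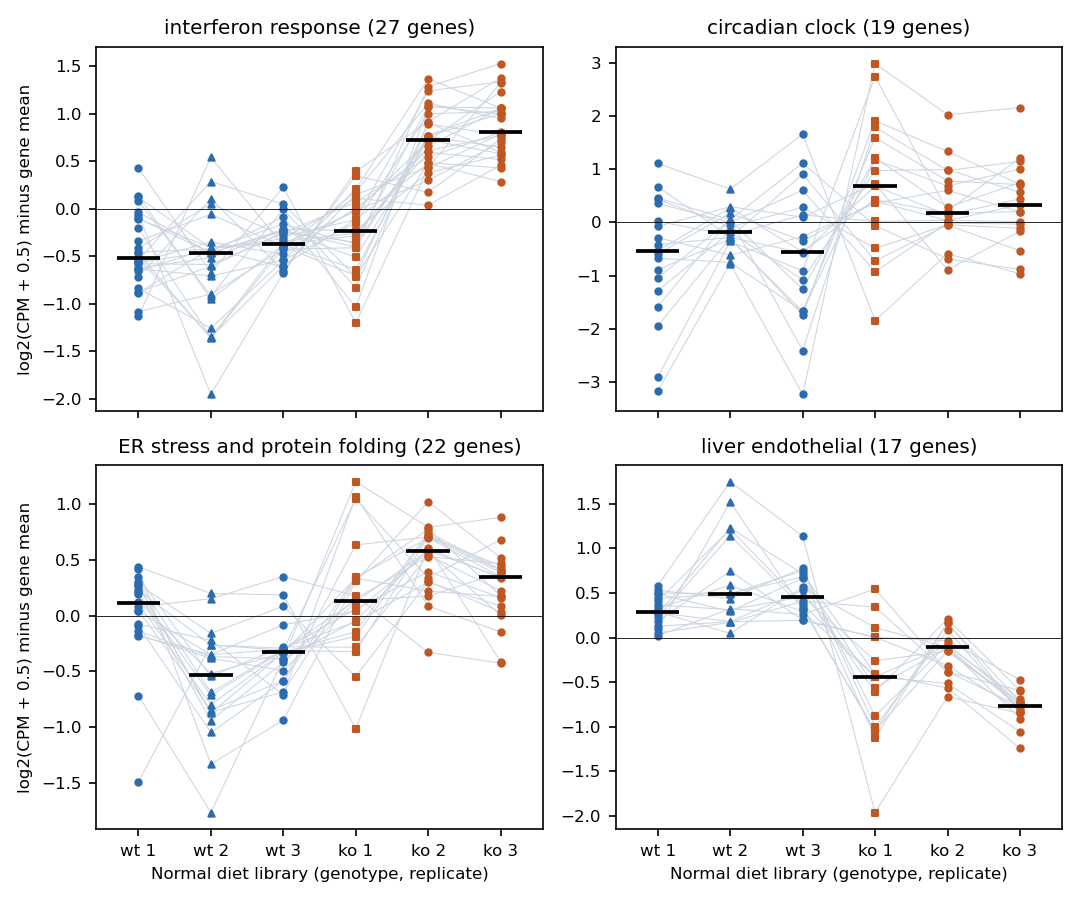
Each point is 1 gene in 1 normal diet library, as log2(CPM + 0.5) minus that gene's mean over the 6 libraries, and black bars are the medians of the list. Interferon response medians are -0.52, -0.47 and -0.37 in wt and -0.23, 0.73 and 0.80 in ko; endothelial medians are 0.29, 0.49 and 0.46 in wt and -0.44, -0.11 and -0.77 in ko.

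Genes of ER stress and protein folding, which are switched on when unfolded proteins load the ER, had a median change of 0.61 and 19 of 22 were above 0. None was called. Derl3, which takes part in removing misfolded proteins, was at 6.83, 3.05 and 8.68 CPM in wt and at 27.1, 20.3 and 21.6 CPM in ko (log2 change 1.90, SE 0.35, edgeR adjusted p = 0.0539). Creld2, a secreted ER stress gene, was at 53.7, 27.5 and 38 CPM in wt and at 89.0, 93.6 and 75.0 CPM in ko (1.11, SE 0.21, adjusted p = 0.0597). The main chaperone gene Hspa5 overlapped between the groups, at 502, 272 and 326 CPM in wt and 325, 577 and 462 CPM in ko. In the plot of list members by library, wt_normal replicate 1 had a median of 0.12, close to the 0.13 of ko_normal replicate 1.

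Of 19 circadian clock genes none was called, while 10 had every ko library above every wt library and 3 below (11.4% of all genes each way), and the median change was 0.79. Dbp, a clock output factor, was at 2.15, 13.5 and 2.04 CPM in wt and at 191, 97.3 and 107 CPM in ko (log2 change 4.46, SE 0.89, edgeR adjusted p = 0.0606). Per2, a repressor of the clock, was at 8.92, 13.5 and 4.96 CPM in wt and at 39.0, 27.6 and 34.5 CPM in ko (1.88, SE 0.37, adjusted p = 0.0606). Arntl, which encodes the activator BMAL1 and cycles in the opposite phase to Dbp and Per2, was at 11.5, 8.09 and 17.1 CPM in wt and at 1.04, 3.19 and 2.34 CPM in ko (-2.47, SE 0.49, adjusted p = 0.0625). Nr1d1, the repressor REV-ERB alpha, was at 2.07 (SE 0.47, adjusted p = 0.0933). The part of the time of sampling in these values, or in the changes of other rhythmic genes, was not tested.

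The 13 mitochondrially encoded protein genes all had a change above 0, with a median of 1.08 and no call. ko_normal replicate 1 was the highest ko library for all 13, and without it the median was 0.25. Cytochrome oxidase subunit mt-Co1 was at 12611, 13706 and 11208 CPM in wt and at 45059, 14626 and 19711 CPM in ko. Every ko library lay above every wt library for 4 of the 13, against 11.4% of all genes, among them mt-Nd3, at 22.8, 11.6 and 11.5 CPM in wt and 87.1, 27.7 and 38.9 CPM in ko (1.75, SE 0.42, edgeR adjusted p = 0.0993). The 24 nuclear genes of the respiratory chain had a median of -0.20, which was 0.09 without both libraries, so its sign depended on those libraries.

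**Figure D4:**
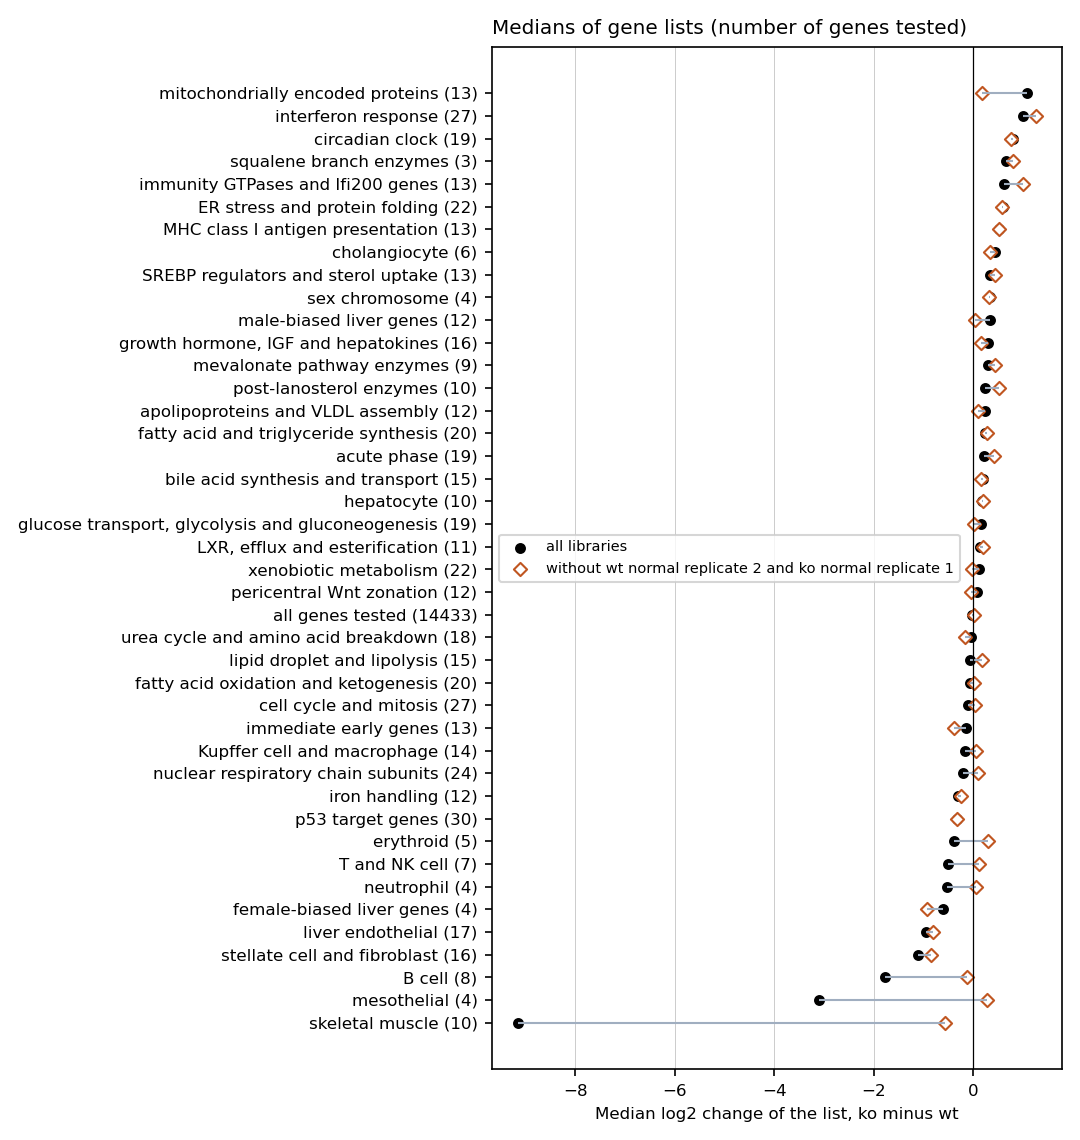
Median log2 change, ko minus wt, of each gene list with at least 3 tested genes (number tested in brackets), with all libraries (black) and without wt_normal replicate 2 and ko_normal replicate 1 (open diamonds). Skeletal muscle, mesothelial and B cell medians moved from -9.15, -3.11 and -1.77 to -0.56, 0.28 and -0.13. Endothelial and stellate medians moved from -0.96 and -1.12 to -0.80 and -0.86.

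All 17 endothelial markers tested had a change below 0, with a median of -0.96. Every ko library was below every wt library for 13, against 11.4% of all genes. None of the 17 was called. Without both libraries the median was -0.80 and both remaining ko libraries lay below both remaining wt libraries for all 17, against 23.3% of all genes (23.5% in the other direction). Their summed level, in CPM of the whole library, was 650 to 810 in wt and 308 to 501 in ko. In bulk tissue, fewer cells of a type and less RNA per cell cannot be told apart.

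Of the 3 most abundant endothelial markers, Stab1, a scavenger receptor, was at 106, 131 and 125 CPM in wt and at 153, 80.1 and 61.1 CPM in ko, and overlapped. Eng, endoglin, was at 104, 108 and 109 CPM in wt and at 95.4, 93.0 and 68.5 CPM in ko (log2 change -0.32, SE 0.19). Clec4g, a lectin of sinusoidal cells, was at 76.1, 66.4 and 86.0 CPM in wt and at 36.5, 50.0 and 31.1 CPM in ko (-0.96, SE 0.28, edgeR adjusted p = 0.143). Lyve1, a hyaluronan receptor, had the smallest p of the list at -2.50 (SE 0.51, adjusted p = 0.066).

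Stellate cell and fibroblast markers had a median of -1.12, and -0.86 without both libraries. With all libraries all 16 were below 0 and none was called, and without both libraries 15 were below 0 and 1 above. Every ko library was below every wt library for 9 of the 16, against 11.4% of all genes. Vim, the intermediate filament vimentin, was at 38.8, 66.1 and 71.7 CPM in wt and at 20.5, 13.4 and 16.5 CPM in ko (-1.81, SE 0.39, edgeR adjusted p = 0.0856). Among the most abundant members, Dcn, decorin, was at 78.0, 128 and 83.1 CPM in wt and at 31.4, 58.6 and 50.6 CPM in ko (-1.04, SE 0.31), and Ecm1 overlapped. Des, desmin, which muscle also expresses, was at 547 CPM in wt_normal replicate 2 and at most 17.9 CPM in the other 5.

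Macrophage markers had a median of -0.16, and of 0.06 without both libraries. Of the 14 markers, 1 was separated between the groups, lower in ko (11.4% of all genes were). Their most abundant members, Clec4f, Cd5l and C1qa, overlapped between the groups. B cell markers had a median of -1.77 that was 0.46 without wt_normal replicate 2, where Ighm stood at 107 CPM against 2.86 to 7.24 CPM elsewhere. The 10 hepatocyte markers had a median of 0.18, with changes from -0.48 to 0.88 and 2 below 0. Alb, Apoa1 and Cebpa were separated, all higher in ko (11.4% of all genes were). Alb, serum albumin, the highest change of that list, was at 28003, 19830 and 21788 CPM in wt and at 41828, 44882 and 41513 CPM in ko (log2 change 0.88, SE 0.25, edgeR adjusted p = 0.13). The part of the share of cell types in the other changes was not tested.

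Several other lists were of metabolism and acute responses. Immediate early genes, which respond within minutes to handling and growth signals, had a median of -0.14 that was 0.21 without wt_normal replicate 2, 0.12 without ko_normal replicate 2 and -0.38 without both libraries. Its member Junb was at 24.3, 40.6 and 37.8 CPM in wt and at 153, 86.3 and 75.8 CPM in ko (log2 change 1.62, SE 0.59, edgeR adjusted p = 0.219). Medians were 0.21 for 19 acute phase genes, 0.19 for 15 bile acid genes, 0.12 for 22 genes of xenobiotic metabolism, -0.04 for 18 of the urea cycle and amino acid breakdown, and -0.30 for 12 of iron handling. Without both libraries these medians were 0.41, 0.15, -0.03, -0.16 and -0.25. The acute phase median was -0.04 without ko_normal replicate 2, and that of the urea cycle list 0.11 without wt_normal replicate 3. Igfbp1, an insulin-repressed binding protein of growth factors, was at 97.2, 113 and 177 CPM in wt and at 21.3, 22.6 and 29.5 CPM in ko (-2.40, SE 0.83, adjusted p = 0.198). Cyp2a5, a cytochrome P450, was at 142, 206 and 220 CPM in wt and at 682, 377 and 446 CPM in ko (1.41, SE 0.34, adjusted p = 0.0993). The groups of Junb, Igfbp1 and Cyp2a5 did not overlap, and none of the 3 passed.

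On HFD, 10 genes were called between ko and wt (0.0693%), of which 7 were among the 30 with the same direction. These were Trp53, Serpine2, mt-Tg and 4 of the 5 predicted gene models. The HFD comparison uses other libraries under another diet. Both comparisons come from the same fit with a shared estimate of the spread, so their calls are not independent. Of the 30 genes 28 had the same sign there, and 24 had a smaller change. The share of all genes with the same sign on both diets is not given here. The median size of the log2 change was 2.41 on the normal diet and 1.15 on HFD, but the 30 were chosen on the former.

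**Figure D5:**
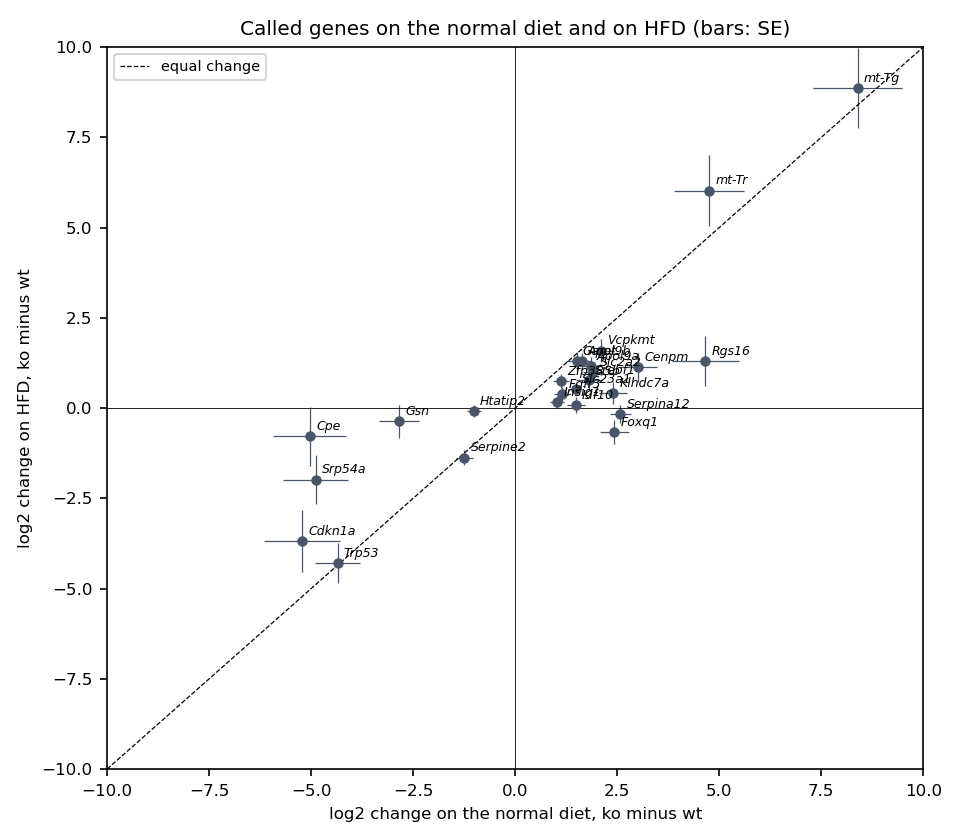
Log2 change, ko minus wt, on the normal diet (horizontal) against HFD (vertical) for the 25 called genes with an established symbol, with bars of 1 SE. The dashed line is an equal change. Serpina12 and Foxq1 lie below 0 on HFD, at -0.16 and -0.66, and Trp53 lies near the line at -4.35 and -4.30.

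The difference between the ko changes on the 2 diets was tested in the same fit, and no gene passed (0 of 14433, 0%, at a smallest adjusted p of 0.0587 by edgeR). At an unadjusted p under 0.05 there were 725 genes, DESeq2 called 19 and voom 1. The smallest p was that of Serpina12, with a difference of -2.74 on the log2 scale (SE 0.36). Its wt_HFD libraries were at 213, 264 and 183 CPM and its ko_HFD libraries at 200, 170 and 221 CPM. All 6 HFD libraries thus lay above the ko_normal libraries, and the genotypes overlapped on HFD.

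Foxq1 had the next difference among the called genes, -3.09 (SE 0.49, edgeR adjusted p = 0.217), with 16.8, 15.5 and 29.1 CPM in wt_HFD and 13, 10.4 and 15.4 CPM in ko_HFD. Slc23a1 was at 25.4, 25.6 and 30.6 CPM in wt_HFD and at 38.1, 37.4 and 42.3 CPM in ko_HFD, a change of 0.53 (SE 0.15) that did not pass there. Slc2a2 had a log2 change of 0.99 (SE 0.23, edgeR adjusted p = 0.268) on HFD. Cdkn1a was at -3.68 (SE 0.86, adjusted p = 0.267) and Sqle at 1.06 (SE 0.29, adjusted p = 0.343) on HFD, with differences between diets of 1.54 (SE 1.2) and 0.23 (SE 0.41).

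The ER genes had medians of opposite sign on the 2 diets. Their median was 0.61 on the normal diet and -0.28 on HFD, and the difference was below 0 for all 22 genes, with an unadjusted p under 0.05 for 10 and no adjusted call. Derl3, for example, was at 27.2, 23.2 and 27.7 CPM in wt_HFD and at 21, 23.2 and 10.3 CPM in ko_HFD, where the groups met. The endothelial list was below 0 for all 17 genes on both diets, with medians of -0.96 and -0.42. Interferon response genes had medians of 0.99 and 0.64, with 26 of 27 above 0 on HFD, and p53 targets -0.32 and -0.37.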

How the data were processed

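RNA was measured in 12 liver libraries, and the 6 normal diet libraries are described here. The authors deposited whole-number read counts per gene, 1 column per library. Per the submitters' processing notes, CASAVA 1.8 and Bowtie 0.12.2 were used, and the notes name the builds mm8 and mm9. No source used here gives the counting tool or strand setting, so reads of overlapping or near-identical genes cannot be told apart.

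Counts were used as deposited. Symbols were matched for 52403 of 52636 identifiers, and positions are those of GENCODE M21 on GRCm38. The quasi-likelihood F-test of edgeR 4.0.16 was fitted to 4 group means over all 12 libraries, with TMM scaling, filterByExpr and a two-sided contrast of ko_normal with wt_normal, at 8 residual and 4.66 prior degrees of freedom. P-values were Benjamini-Hochberg adjusted over 14433 genes and called under 0.05. The test was checked on simulated counts with the same spread for all genes and no library that stands apart. That check does not cover libraries that stand apart, as in these data. CPM are edgeR's scaled counts, and standard errors come from the F statistic. Depth limits genes at a few counts, and intervals cover counting error only. Replicate pairs within a group differed beyond sampling noise, with a chi-square per degree of freedom of 39.5 to 190 over genes with at least 20 counts in the normal diet groups.

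The members of the gene lists were chosen with earlier results of these data known, so their counts and medians are descriptions without a test. Named genes were Trp53, Sqle, Cdkn1a, every called gene with an established symbol (with all libraries, or without wt_normal replicate 2 and ko_normal replicate 1), and the 2 members of each list with the smallest p. For cell type lists, the 3 most abundant members were added. Alternatives were DESeq2 1.42.0, voom of limma 3.58.1, other scalings and filters, a replicate block, only the normal diet libraries, and each library left out. Genes named outside the rule, Arntl, Bbc3, Ccng1, Cebpa, Gdf15, Hspa5, Insig2, Mdm2, Npc1, Nr1d1, Phlda3, Pklr and mt-Co1, and those called only without 1 library, Acmsd, Bhlhe41, Csrp3 and Ifitm3, were chosen after their values were seen. Values of 1 list member are not reported here.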

Additional observations from a re-analysis of the deposited data

How the results depend on the processing

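The count of 30 called genes depended on single libraries. Leaving out 1 library at a time gave 3 to 88 calls on the same tested genes. In the order of replicates 1, 2 and 3, leaving out a wt_normal library gave 18, 6 and 7, a ko_normal library 16, 8 and 3, a wt_HFD library 44, 88 and 43, and a ko_HFD library 17, 12 and 29. With genes filtered again, an alternative chosen after seeing the data, the range over the normal diet libraries was 3 to 84, and without both libraries that stand apart it was 5, against 6 on the same genes. Other fits gave 94 with only the normal diet libraries, 648 with no low count filter, 529 with DESeq2, 10 with voom and 1908 with voom sample weights, where the cause was not tested. DESeq2 and the fit without a filter kept all 30 calls, and voom kept 10. RLE factors, upper quartile factors, totals without mitochondrial and muscle genes, and a minimum of 1 CPM in 3 libraries gave 30, 21, 28 and 29. The replicate block gave 45 calls over 12 libraries and 19 over the normal diet libraries. What a replicate number marks is not given. Same-numbered wt and ko deviations correlated at -0.0077, -0.070 and 0.11 over 12500 genes. With 3 libraries per group, these values cannot show whether the numbers pair the samples. The change of Sqle stayed within 0.69 to 1.14 and passed only with voom sample weights (1.05). The difference between diets had 0 calls, 0 to 1 with a library left out and 19 with DESeq2. Medians of 13 of 43 gene lists turned sign without both libraries that stand apart, among them nuclear respiratory (-0.20 to 0.09), macrophage (-0.16 to 0.06), cell cycle (-0.11 to 0.04), xenobiotic (0.12 to -0.03) and mesothelial (-3.11 to 0.28) genes. Genes at a few counts, such as Cenpm and mt-Tr, are limited by depth.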
